A study of Mus musculus with 69 samples.

Results

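Ribosomal protein genes were followed in mouse embryonic stem (ES) cells in which the level of Oct3/4 was changed. A gene was taken as a member where its single symbol marks a protein of the cytosolic ribosome (Rpl, Rps, Rplp or Rpsa) or of the mitochondrial ribosome (Mrpl or Mrps). Of 20619 genes and unnamed oligos of the time course arrays 56 were members, 41 cytosolic (58 oligos) and 15 mitochondrial (16 oligos). Of 18443 on the arrays hybridised against reference RNA 106 were members, 51 cytosolic and 55 mitochondrial. Together 117 genes were measured on at least 1 of the 2 sets, and 30 cytosolic and 15 mitochondrial genes on both. All oligos of members passed the filters. The symbol rule also takes 5 genes on each set that encode no ribosomal protein (S6 kinases such as Rps6ka3, and on the reference arrays also Rps19bp1), which were kept apart.

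All time course cells descend from CGR8 ES cells and carry a tetracycline (Tet)-regulated Oct3/4 transgene. In ZHTc6 cells, which keep 1 intact Pou5f1 allele, withdrawal of Tet turned the transgene on. In ZHBTc4 cells both Pou5f1 alleles are disrupted, and addition of Tet shut off the transgene that kept the cells undifferentiated. RNA was taken at 24, 48, 72, 96 and 120 h, in 3 samples of each line, and each sample was hybridised in a dye-swapped pair of arrays against 0 h RNA of its own line, 60 arrays in all. Each of 9 further arrays compared 1 sample with Universal Mouse Reference RNA, in 1 dye orientation: 3 of ZHTc6 and 3 of ZHBTc4 cells at 0 h, and 1 each of EB5 ES cells transfected with siTcl1 at 560 uM, siTcl1 at 1120 uM or siGFP as control, with the doses as the labels state them. Each line is 1 clone, and Tet was withdrawn in one line and added in the other, so that the effects of Oct3/4, of Tet and of the clone cannot be told apart. Every sample holds RNA of a whole culture, so that fewer cells of a type and less RNA per cell cannot be told apart either. 

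A ribosome consists of a small and a large subunit, each built from ribosomal RNA and many proteins of which usually 1 copy is needed per particle. Cytosolic ribosomes make nearly all proteins of the cell. Mitochondrial ribosomes are built from a different set of nuclear-encoded proteins and make only the few membrane proteins encoded in mitochondrial DNA. Messenger RNAs of cytosolic ribosomal proteins typically begin with a C followed by a run of pyrimidines, the TOP tract (5′ terminal oligopyrimidine), through which mTOR signalling regulates their translation.

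The letters at the annotated starts are shown for members on which the results turn, because the TOP tract is the feature for which the cytosolic class is known. Each line gives 10 bases before and 20 bases from the RefSeq start (GRCm38.p6), 5′ to 3′ on the strand of the gene, with a pyrimidine tract that opens with C within 5 bases of the start in capitals. Rpl27a (chr7:109519185-109519214, plus strand), Rpl15 (chr14:18270967-18270996, minus), Rpl13a (chr7:45128726-45128755, minus) and Rpl39 (chrX:37085203-37085232, minus) had a tract, of 20, 17, 14 and 5 bases in that order. Rps4x (chrX:102189372-102189401, minus), Rpl26 (chr11:68901556-68901585, plus), Mrpl47 (chr3:32736736-32736765, minus) and Mrps5 (chr2:127587416-127587445, plus) had none in this window.
Rpl27a: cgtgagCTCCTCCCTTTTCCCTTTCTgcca
Rpl15: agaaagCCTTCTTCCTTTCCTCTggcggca
Rpl13a: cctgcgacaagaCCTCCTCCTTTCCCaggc
Rpl39: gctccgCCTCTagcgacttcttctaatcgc
Rps4x: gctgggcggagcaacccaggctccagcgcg
Rpl26: ggcaacttacagaaccggaagtcgcgtgta
Mrpl47: cgacactgtgggtctccattagaaacatgg
Mrps5: tccggctccagcatggcggcggccgtacgc

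Over all members with a promoter in the RefSeq table, a C followed by at least 4 pyrimidines within 5 bases of the start was found in 22 of 48 cytosolic genes (45.8%) and 11 of 49 mitochondrial genes (22.4%), against 21.2% of 27025 genes. The letters CCGGAA, the core bound by ETS factors, were searched on both strands of the 300 bases around the start. They occurred in 52.1% of cytosolic and 55.1% of mitochondrial promoters, against 16.7% of all. AAGATGGC, the core of the YY1 motif, occurred in 10.4% of cytosolic and 20.4% of mitochondrial promoters, against 3.19% of all, and GCATGCGC, the core of the NRF-1 motif, in 4.17% and 12.2%, against 3.05%. The only overlap of cores that was searched was an ETS core whose last letters AA open the YY1 core. No promoter of a member held it, and only 1 of 27025 genes did. These shares describe the letters near annotated starts and carry no test.

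The manipulated gene was looked at first. Pou5f1, which encodes Oct3/4, stood at -0.13, 0.03 and 0.53 (log2 ratio over 0 h) early and at 0.81, 1.04 and 0.15 late in the 3 ZHTc6 samples, and at -1.90, -2.38 and -2.15 early and -2.66, -2.83 and -2.26 late in the ZHBTc4 samples. It was thus low in all ZHBTc4 samples. In ZHTc6 cells it was near the 0 h level in 2 of 3 samples early. Late it was above that level in samples 1 and 2 and near it in sample 3. These values rest on 1 oligo. Early is the mean of 24 and 48 h of a sample, and late is the mean of 72, 96 and 120 h. The list of 10 ES cell markers includes the manipulated Pou5f1 itself. Late in ZHTc6 cells 8 of the 10 fell and 1, Pou5f1, rose, against 13.4% and 15.9% of all features. Late in ZHBTc4 cells all 10 fell (median -2.99), while 8 of 9 measured trophoblast markers rose (median 4.26) and 1 fell. Of all features 26% fell and 25.1% rose late in that line. These shifts in cell type ran beside all values below, and their part in the ribosomal results was not tested. Dye-swapped arrays of the same pair correlated between 0.0535 and 0.835, and no intensities were used, so that the number of arrays limits the precision.

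Names of oligos on the time course arrays were uncertain. The annotation lists 1 gene for 4262 of 22575 oligos, so that further names were taken from tables of the study. Most genes of these tables are there because they changed on these arrays. They named 30 of the 41 cytosolic and 6 of the 15 mitochondrial genes, the others having a name from the annotation alone. Of 53 oligos that the annotation gives to 1 ribosomal protein gene, 17 also have a name in the tables, which was the same for 8. The other 9, and 3 oligos for which only the tables give a ribosomal name and the annotation another gene, were left unnamed. Counts of members are therefore also given by source of the name for the early and late responses and the late line difference.

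Over time, the median of the cytosolic members stayed near the 0 h level in ZHTc6 cells and was lower at each later time in ZHBTc4 cells. The median of the 41 genes in ZHTc6 cells was -0.13, -0.06, -0.06, -0.11 and -0.04 at the 5 times in their order. In ZHBTc4 cells it was -0.34, -0.43, -0.51, -0.59 and -0.80, while the median of all features stayed between -0.02 and 0.02. At 120 h the 3 ZHBTc4 samples had medians of -0.76, -0.78 and -0.79, and 38 of 41 genes lay below 0. For the mitochondrial members of ZHTc6 cells the median lay at -0.46 and -0.29 at the first 2 times, and at -0.0005, -0.10 and -0.04 at the 3 later times. In ZHBTc4 cells it was -0.13, -0.18, -0.08, -0.01 and -0.13 over the same 5 times, and their lower quartile was -0.30 at 24 h and -0.93 at 120 h.

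**Figure D1:**
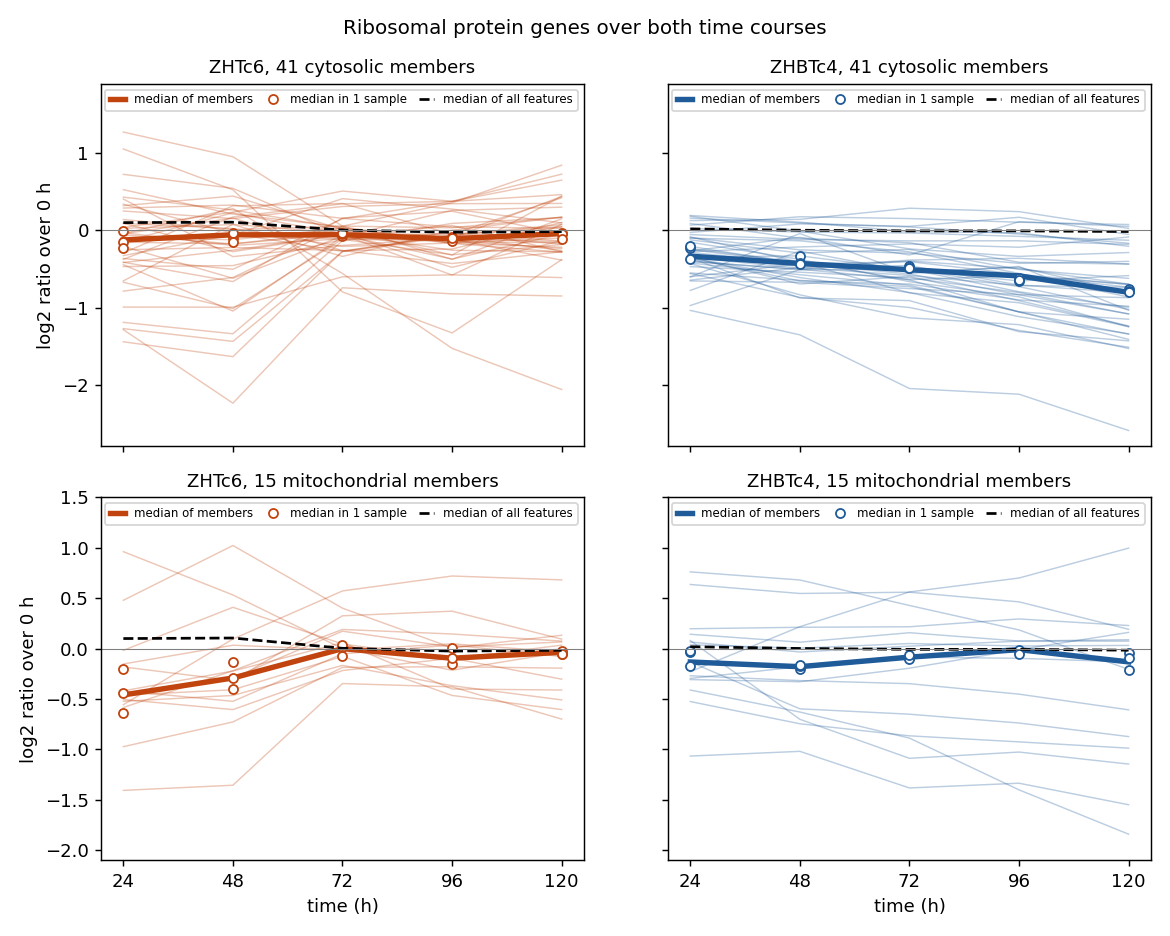
Log2 ratio over 0 h of every cytosolic (top) and mitochondrial (bottom) member against time in h, for ZHTc6 (left) and ZHBTc4 cells (right). Thin lines are genes (mean of 3 samples), the thick line is their median, open circles are the medians of each sample and the dashed line is the median of all 20619 features; the cytosolic median in ZHBTc4 cells reaches -0.80 at 120 h, and the mitochondrial median in ZHTc6 cells starts at -0.46.

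In the early response of ZHTc6 cells, cytosolic members moved in both directions and more mitochondrial members fell than rose. Of 41 cytosolic genes 7 rose and 15 fell, and of 15 mitochondrial genes 2 rose and 9 fell. Of all features 38.4% rose and 27.7% fell at the same threshold (limma, adjusted p under 0.05 after Benjamini-Hochberg adjustment over 20619 features, as in all time course tests). The median log2 ratio was -0.10 for cytosolic and -0.38 for mitochondrial members, against 0.11 for all features. Among genes named in tables of the study, 13 of 30 cytosolic (43.3%) and 4 of 6 mitochondrial members (66.7%) fell, against 61.3% of all 3192 genes with such names. Of genes named by the annotation alone, 2 of 11 cytosolic and 5 of 9 mitochondrial members fell, against 27.2%.

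Rpl23, a large-subunit protein that also binds the p53 regulator Mdm2, had -1.60, -1.49 and -1.53 (log2 ratio over 0 h) in the 3 ZHTc6 samples early, a 2.91-fold fall (SE 0.08, adjusted p = 3.51e-06). Rps24, a small-subunit protein that is mutated in some patients with Diamond-Blackfan anaemia, had -1.44, -1.36 and -1.27 (2.56-fold, adjusted p = 4.45e-06). Rpl15, needed for maturation of the large subunit, had -1.36, -1.42 and -1.02 (2.41-fold, adjusted p = 2.33e-05). The 3 samples lay close together for each of these genes. Rpl36a had the lowest mean (-1.76) with values of -2.95, -0.65 and -1.69, so that 1 sample fell by far less than the others, and it was not called in the dye orientation that has the time point in Cy3 (adjusted p = 0.111).

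The members that rose early in ZHTc6 cells were led by Rplp1, a protein of the stalk to which elongation factors bind, with 1.25, 1.31 and 0.78 (2.16-fold, adjusted p = 0.000117). In the orientation that has the time point in Cy5 it stood at 0.27 (adjusted p = 0.262), so that 1 dye orientation carried the call. On 4 of the 60 arrays, all of ZHTc6 cells at 72 or 96 h, the oligo of Rplp1 had a value that 11 to 26 other oligos shared within 0.001. Rpl39, one of the smallest ribosomal proteins, lines the exit tunnel of the large subunit and had 0.98, 0.73 and 0.65 (1.73-fold, adjusted p = 0.00368). Rpl36 had 0.70, 0.58 and 0.63, and Rpl13a, which in human cells also silences translation of some inflammatory messengers, had 0.36, 0.38 and 0.41 (adjusted p = 0.000293 and 0.00716 in that order). Rpl13a was not called with arrays centred and scaled (0.23, adjusted p = 0.0527) or in the Cy5 orientation (adjusted p = 0.0918).

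Among mitochondrial members in the early ZHTc6 response, Mrpl47, a large-subunit protein, fell most, with -1.55, -1.27 and -1.33 (2.60-fold, adjusted p = 7.2e-06). Mrps31 of the small subunit had -0.81, -0.98 and -0.76 (1.80-fold, adjusted p = 0.000108). Mrpl39 and Mrpl43 fell by 0.56 and 0.49. The 2 members that rose were Mrpl20, with 0.84, 0.60 and 0.81, and Mrpl37, with 0.94, 0.67 and 0.64. Both rises were 1.68-fold (adjusted p = 0.000101 for Mrpl20 and 0.000179 for Mrpl37). The same sign in all samples was a condition for naming a member.

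Most cytosolic members that changed early in ZHTc6 cells moved back from early to late. In the late response 7 cytosolic genes rose and 9 fell, and 2 mitochondrial genes rose and 5 fell, against 15.9% of all features that rose and 13.4% that fell. By source of the name, 5 of 30 cytosolic genes of the tables rose and 6 fell, and 2 of 11 of the annotation alone rose and 3 fell. Of the mitochondrial genes 1 of 6 rose and 1 fell by the tables, and 1 of 9 rose and 4 fell by the annotation alone. Of all genes named in tables of the study 35.3% rose and 22.2% fell late in this line. Of all genes named by the annotation alone 20.7% rose and 9.98% fell. Without any of the 3 ZHTc6 samples the cytosolic count of 16 became 8 or 9, and the mitochondrial count of 7 became 4 without sample 1 or 3. From early to late, 15 cytosolic genes rose and 11 fell and 8 mitochondrial genes rose and 2 fell, against 29.1% and 37.8% of all features. Of the 15 cytosolic genes that had fallen early, 12 rose from early to late and 9 did not pass the test late, and all 7 that had risen early fell afterwards. Values of the late minus early difference share the early arrays with the early response, so that a part of this reversal is fixed by construction. Of all features 38.4% rose and 27.7% fell early in this line, and 29.1% rose and 37.8% fell from early to late. How many features that changed early moved back was not counted, so that this reversal is not shown to be particular to ribosomal genes. The paper describes many genes of this line as quick to respond and later back at their starting levels.

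Rpl23 rose by 1.58, 1.36 and 1.42 from early to late in the 3 ZHTc6 samples (2.74-fold, adjusted p = 3.69e-06), and its mean was 0.07 ± 0.08 (SD, n = 3) at 120 h. At 120 h the labels give 2 of the 3 ZHTc6 array pairs the same number of their own RNA, so that the 3 values of this time may come from 2 samples, here and below. Rpl15 rose by 1.46, 1.35 and 1.11 and Rps24 by 1.22, 1.12 and 1.11. Rpl22, a large-subunit protein that also binds other RNAs and is needed for αβ T cell development in mice, had an early mean of -0.70 and late values of 0.30, 0.49 and 0.46 (adjusted p = 0.00196). Its mean at 120 h was 0.84 ± 0.10 (SD, n = 3). Rpsa, a small-subunit protein first described as a laminin receptor, had 0.56, 0.54 and 0.52 late (1.45-fold, adjusted p = 0.000905). Rplp0, the base of the stalk, had 0.40, 0.28 and 0.33 (adjusted p = 0.0379), a call that was lost without any of these samples.

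The lowest late values of ZHTc6 cells came from a pair of paralogs. Rpl39l, a paralog of Rpl39 known for its expression in testis, had -1.47, -1.34 and -1.34 late (2.61-fold, adjusted p = 4.43e-05), and reached -2.06 ± 0.15 (SD, n = 3) at 120 h. Rpl39 had -0.85, -0.89 and -0.77 (1.78-fold, adjusted p = 0.00115). From early to late Rpl39 fell by 1.62 (3.08-fold) and Rpl39l 2.83-fold. The 2 genes are similar in sequence and whether their oligos tell them apart was not tested, so that their values are uncertain to that extent. At 120 h they stood apart, at -0.38 ± 0.09 (SD, n = 3) for Rpl39.

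Rpl36a (-1.13, -0.50 and -0.79) and Rpl30 (mean of 2 oligos, -0.75, -0.55 and -0.50) also fell late in ZHTc6 cells. Rpl36a was not called in the Cy3 orientation (-0.70, adjusted p = 0.0563). The 2 oligos of Rpl30 had -1.10 and -0.10, and with names from the annotation alone Rpl30 was no longer called (adjusted p = 0.461). Among mitochondrial members Mrpl45, which holds the mitochondrial ribosome at the inner membrane, rose to 0.70, 0.65 and 0.62 late (1.58-fold, adjusted p = 0.00141), with an early mean of -0.23, and Mrps5 had 0.40, 0.14 and 0.25 (adjusted p = 0.0202). The call of Mrps5 was lost without ZHTc6 sample 1 or 3 and with the time point in Cy5 alone. Mrpl47 remained low (-0.55, -0.42 and -0.46), with Mrpl15, Mrpl43 and Mrpl51 at -0.38, -0.35 and -0.25. The call of Mrpl51 was lost without any of the ZHTc6 samples. All samples of these genes had 1 sign, which was a condition for naming them.

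**Figure D2:**
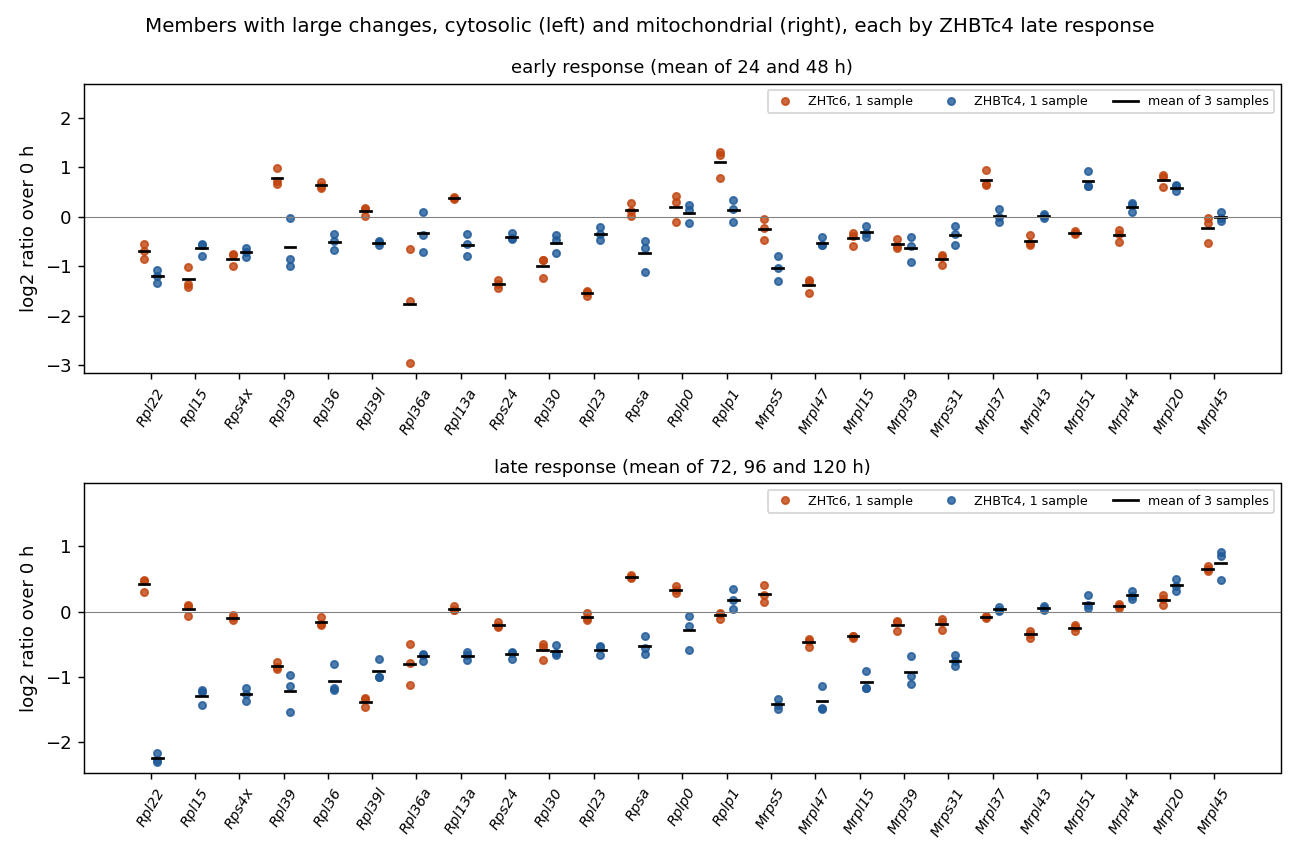
Log2 ratio over 0 h of members with large changes, early (top) and late (bottom), with ZHTc6 left of ZHBTc4 for each gene. Points are the 3 samples of a line and bars their means; late, Rpl22 lies between 0.30 and 0.49 in ZHTc6 and between -2.32 and -2.17 in ZHBTc4 samples, while Mrpl45 is above 0 in all 6 samples.

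In ZHBTc4 cells most cytosolic members fell early, and many fell further afterwards. Early, 25 of 41 cytosolic genes fell and 0 rose, against 12.7% and 13.6% of all features. Of the 25, 23 were among the 30 genes named in tables of the study, of which kind 37.1% fell in all, and 2 among the 11 named by the annotation alone, of which kind 7.85% fell. With names from the annotation alone for all genes, 2 of 24 rose and 7 fell early. Late, 33 fell and 0 rose, against 26% and 25.1% of all features, and the median was -0.64 against -0.01 for all features. All 25 genes that fell early were among the 33. Of these 33, 9 also fell and 6 rose late in ZHTc6 cells. From early to late 22 fell and 0 rose, against 13.7% and 14.6%. At an unadjusted p under 0.05 (limma), 0 rose early, 1 late and 0 from early to late. With an unmoderated test 2 rose early, 1 late and 0 from early to late. The count of early falls was 16 without ZHBTc4 sample 2, and that of further falls 13 without sample 2 and 11 without sample 3. Members of both subunits were among them, with 21 of 26 large-subunit and 12 of 15 small-subunit genes lower late.

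Rpl22 led all members in ZHBTc4 cells. Its values were -1.19, -1.07 and -1.33 early and -2.32, -2.17 and -2.28 late, a 4.77-fold fall late (SE 0.06, adjusted p = 2.85e-07). Its mean was -1.04, -1.35, -2.05, -2.12 and -2.59 at the 5 times, with SDs of 0.06 to 0.19 (n = 3). The 3 samples were close at every time. Rpl15 had -1.24, -1.21 and -1.44 late (2.45-fold, adjusted p = 4.85e-06), and Rps4x, an X-linked protein of the small subunit, had -1.26, -1.17 and -1.38 (2.41-fold, adjusted p = 2.48e-06). Rpl39 had -1.15, -1.54 and -0.97 (2.33-fold, adjusted p = 5.91e-05), and its paralog Rpl39l -0.72, -1.01 and -1.01 (1.89-fold). Early, Rpl39 had -0.84, -0.99 and -0.02, so that sample 3 was near 0 h, and the early call was lost without sample 1 or 2.

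Rpsa was among the lowest early in ZHBTc4 cells, with -0.49, -1.11 and -0.63 (adjusted p = 0.00268). From early to late the 4 largest further falls of cytosolic members were those of Rpl22 (-1.06), Rpl27a (-0.75), Rpl26 (-0.69) and Rpl15 (-0.66). Rpl26, known to bind p53 messenger RNA, had -0.86, -1.12 and -1.07 late, and Rpl27a had -1.07, -0.90 and -1.03. The starts printed above show tracts for Rpl27a and Rpl15 and none for Rpl26 and Rps4x. Members with and without the letters of a TOP tract at the annotated start were thus among those that fell most. Whether the annotated starts are those used in these cells was not tested, so that a missing tract here does not show that the messenger RNA lacks one. Of the cytosolic genes that fell late and have a promoter in the table, 11 of 27 held a tract, against 3 of 6 of the other cytosolic genes on these arrays. The 8 cytosolic genes that did not pass the test late lay between -0.15 and 0.18 and included Rplp1, Rps23 and Rps28. The value of Rps28 is the mean of 2 oligos of opposite sign, at -0.52 and 0.40.

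Mitochondrial members of ZHBTc4 cells split. Early 2 of 15 rose and 7 fell, against 13.6% and 12.7% of all features, and 5 of the 7 that fell were among the 6 named in tables of the study. Late 3 rose (20%) and 6 fell (40%), against 25.1% and 26%. From early to late 1 rose and 5 fell, against 14.6% and 13.7%, and in 1 fit of all time points with the sample number as a block 2 rose and 8 fell. Without sample 1 or sample 3 the 9 early calls became 5. The lowest late was Mrps5, a small-subunit protein, with -1.49, -1.34 and -1.43 (2.68-fold, adjusted p = 3.01e-06), and already -1.03, -0.80 and -1.30 early. Mrpl47 had -0.40, -0.58 and -0.58 early and -1.15, -1.49 and -1.49 late (2.60-fold, adjusted p = 8.8e-06). Mrpl15 had -1.17, -0.91 and -1.18 late (2.12-fold) and Mrpl39 -0.68, -0.99 and -1.12. Mrps31 fell by 0.37 early and by a further 0.39 afterwards. Its early call was lost without sample 1 or 3, with each line fitted alone and with an unmoderated test, and its later one without sample 1 or 2 and with arrays centred and scaled (-0.24, adjusted p = 0.0708). In contrast, Mrpl45 had 0.49, 0.85 and 0.92 late (1.69-fold, adjusted p = 0.000257), Mrpl20 0.50, 0.40 and 0.32, and Mrpl44, whose protein carries a ribonuclease fold, 0.19, 0.31 and 0.24. Mrpl51 was higher early (0.62, 0.62 and 0.93) and fell by 0.57, 0.52 and 0.67 afterwards.

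The count of members in ZHBTc4 cells depended on where their names came from. Late, 27 of the 30 cytosolic genes named in tables of the study fell, whereas of all 3192 genes with such names 42% fell and 40% rose. Of the 11 named by the annotation alone 6 fell, against 27.3% of 1873 genes of that kind. Among mitochondrial genes 4 of 6 named in the tables fell, and of 9 named by the annotation alone 2 fell and 3 rose. Most genes entered the tables because they changed on these arrays, so that the first of these counts is not independent evidence of a fall. With names from the annotation alone for all genes, 3 of 24 cytosolic members rose and 13 fell late. In an alternative chosen after seeing the data, 146 unnamed oligos for which the annotation lists 1 cytosolic member among several genes were counted. Of these, 46 rose and 43 fell late with a median of -0.01, and of 55 such oligos with 1 mitochondrial member 14 rose and 17 fell with a median of -0.04. These counts are read against all 4891 unnamed oligos for which the annotation lists several genes, of which 35.7% rose and 24% fell (median 0.05). Of the oligos with a cytosolic member 31.5% rose and 29.5% fell, and of those with a mitochondrial member 25.5% and 30.9%. Of all features 25.1% rose and 26% fell.

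Oligos of the same gene did not always move together. Of 13 cytosolic genes with more than 1 oligo, Rps12 had late values of -0.72 and -0.81 in ZHBTc4 cells, Rpl27a of -0.90 and -1.10, and the 4 oligos of Rpl4 of -0.39 to -0.75. These lay near each other. For Rps3a1 the oligo named in the tables had -1.09 and 2 named by the annotation had -0.01 and 0.09, and for Rpl17 the values were -0.99 and -0.13. Rpl30 had -1.19 and -0.03, and Mrpl24 0.005 and -0.94. Among cytosolic genes, oligos of opposite sign were found for Rps3a1, Rpl10 (0.27 and -1.03), Rps28 (-0.52 and 0.40), Rpl21, Rpl7a and Rps13. Which oligo of such a pair measures the gene was not tested, and the mean of its oligos is uncertain for each of these genes.

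**Figure D3:**
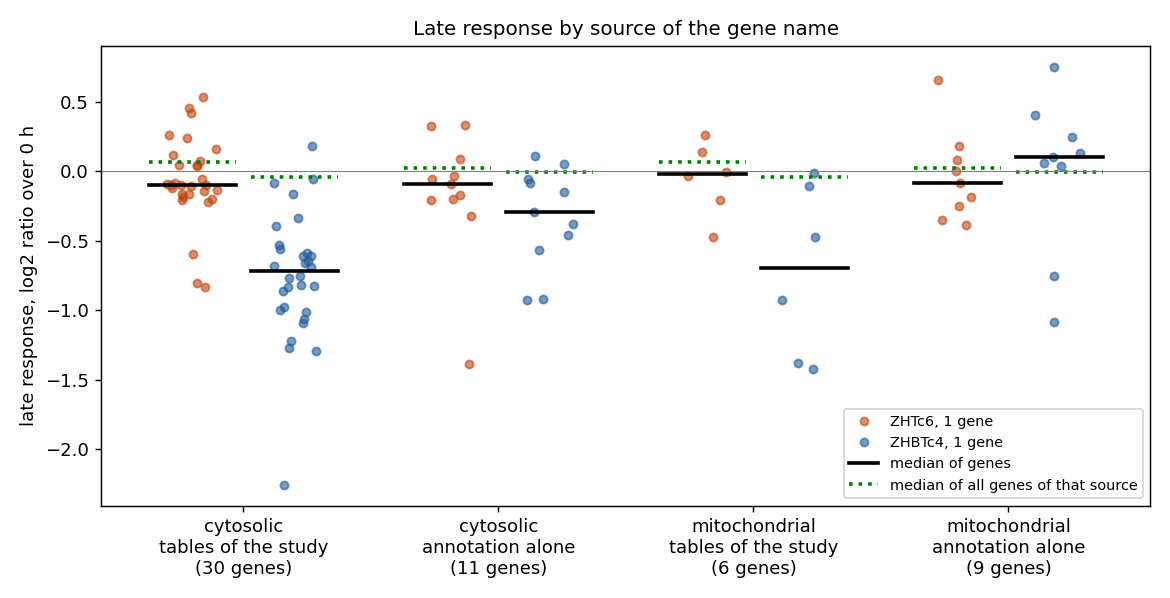
Late response (log2 ratio over 0 h) of each member by class and source of its name, with ZHTc6 left of ZHBTc4. Points are genes, black bars their medians and dotted green bars the medians of all genes with that source of name; in ZHBTc4 cells the median of cytosolic members is -0.72 for names from tables of the study and -0.29 for names from the annotation alone.

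The difference between the lines was tested directly in the same fit. Early, 15 cytosolic genes were higher and 7 lower in ZHTc6 than in ZHBTc4 cells, and 3 mitochondrial genes were higher and 5 lower, against 31% of all features that were higher and 23.4% that were lower. The early count of cytosolic genes thus lay near that of all features. Late, 25 cytosolic genes were higher in ZHTc6 cells and 1 lower, against 17.2% and 16% of all features, and 6 mitochondrial genes were higher and 2 lower. The cytosolic median of the late difference was 0.50, against -0.02 for all features. Of the 33 cytosolic genes that fell late in ZHBTc4 cells, 24 were among those higher in ZHTc6 cells. Both counts use the same ZHBTc4 values, so that a part of this overlap is fixed by construction. By source of the name, 22 of 30 cytosolic genes of the tables were higher late, against 36.5% of all genes so named, and 3 of 11 of the annotation alone, against 20.8%. Of the mitochondrial genes 4 of 6 of the tables were higher and 0 lower late. Of the 9 named by the annotation alone 2 were higher and 2 lower. With names from the annotation alone for all genes, 10 of 24 cytosolic genes were higher in ZHTc6 cells late and 3 lower.

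Early, Rpl39 was higher in ZHTc6 than in ZHBTc4 cells by 1.41 (SE 0.24, adjusted p = 0.00168), Rpl36 by 1.13 (SE 0.12, adjusted p = 0.000178) and Rplp1 by 0.98 (SE 0.18, adjusted p = 0.00206). Rpl36 had 0.70, 0.58 and 0.63 in ZHTc6 samples, against -0.34, -0.67 and -0.49 in ZHBTc4 samples. A lack of overlap between the lines was a condition for naming the largest line differences. Rpl23 (a difference of -1.20), Rps24 (-0.96) and Rpl15 (-0.63) were lower in ZHTc6 cells. The call of Rpl15 was lost with arrays centred and scaled (-0.26, adjusted p = 0.237) and in the orientation that has the time point in Cy3 (adjusted p = 0.074). For Rpl23, ZHTc6 samples had -1.60, -1.49 and -1.53 and ZHBTc4 samples -0.47, -0.35 and -0.20. Among mitochondrial members Mrps5 (0.79), Mrpl37 (0.73) and Mrpl4 (0.51) were higher and Mrpl51 (-1.04), Mrpl47 (-0.86) and Mrpl44 (-0.58) lower in ZHTc6 cells. Mrps5 was not called in the Cy3 orientation (0.60, adjusted p = 0.0735).

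Late, Rpl22 differed most, with 0.30, 0.49 and 0.46 in ZHTc6 samples and -2.32, -2.17 and -2.28 in ZHBTc4 samples, a difference of 2.67 (SE 0.08, 6.38-fold, adjusted p = 3e-06). Rpl15 had 0.09, -0.06 and 0.09 in ZHTc6 samples and -1.24, -1.21 and -1.44 in ZHBTc4 samples (difference 1.34, adjusted p = 5.64e-05). For both genes the samples of both lines were well apart, and a lack of overlap was a condition for naming them. Mrps5 differed by 1.69, Mrpl47 by 0.90 and Mrpl39 by 0.72. The only cytosolic gene that was lower in ZHTc6 cells late was Rpl39l (-0.47, SE 0.10, adjusted p = 0.0104), with Mrpl43 (-0.41) and Mrpl51 (-0.39) among mitochondrial genes. The paralog Rpl39 did not pass this test (0.38, adjusted p = 0.0862), but did in the Cy3 orientation (0.50, adjusted p = 0.0302), without ZHBTc4 sample 3 (0.51, adjusted p = 0.0349) and in 1 fit of all time points without a block (adjusted p = 0.048).

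Other genes of ribosome production were followed through fixed lists. Rack1, a scaffold protein of the small subunit under another symbol, was at 0.15 late in ZHTc6 cells (not called) and fell by 0.84 late in ZHBTc4 cells. The counts of the lists are read against the shares of all features. In ZHTc6 cells these were 38.4% higher and 27.7% lower early and 15.9% and 13.4% late. In ZHBTc4 cells they were 13.6% and 12.7% early and 25.1% and 26% late. The lists were not split by source of the name. Of all genes named in tables of the study, 13.4% rose and 61.3% fell early in ZHTc6 cells. Late in ZHBTc4 cells 40% of genes so named rose and 42% fell. In the late line difference 36.5% of them were higher and 29.4% lower in ZHTc6 cells. Of 27 measured ribosome biogenesis genes 2 rose and 18 fell early in ZHTc6 cells, and late in that line 6 rose and 9 fell. In ZHBTc4 cells 4 rose and 7 fell early and 3 rose and 14 fell late, with a median of -0.16 late. Wdr74 (-1.84) and Ebna1bp2 (-1.39) were the lowest of them late in ZHBTc4 cells, and the nucleolar protein Ncl had -2.38 early in ZHTc6 cells. Late, 12 of the 27 were higher and 4 lower in ZHTc6 than in ZHBTc4 cells, against 17.2% and 16% of all features. Of 6 measured genes of mitochondrial translation, 1 rose and 3 fell early in ZHTc6 cells and 0 rose and 2 fell late in ZHBTc4 cells. Of 13 measured genes of growth signalling to the ribosome, 1 rose and 8 fell early in ZHTc6 cells, while 5 rose and 4 fell late in ZHBTc4 cells. Among them Myc, an activator of ribosome production, stood at 0.30 late in ZHTc6 cells and 1.60 late in ZHBTc4 cells, and Eif4ebp1, a translation repressor under mTOR, at -0.28 and -1.20 in that order. Of the S6 kinase genes that the symbol rule takes, 4 of 5 rose late in ZHBTc4 cells.

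At 0 h, ES cells were set against the reference RNA, a pool of mouse cell lines that is no sample of a group, so that the values describe levels relative to that pool and carry no test. They also do not rank genes by abundance. Cytosolic members had a median log2 ratio of ES cells over reference of 0.11 over both lines, with 32 of 51 above 0, and mitochondrial members one of 0.45, with 44 of 55 above 0. Of all features 54.4% were above 0, with a median of 0.05. By array, the cytosolic median was 0.04 to 0.09 in ZHTc6 and 0.17 to 0.25 in ZHBTc4 cells, and the mitochondrial median 0.56 to 0.60 in ZHTc6 and 0.29 to 0.42 in ZHBTc4 cells. The ranges of the lines did not overlap in either class, and the direction was opposite between the classes.

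The highest value belonged to Rps4l, an autosomal paralog of Rps4x, at 5.47, 5.80 and 5.65 in ZHTc6 and 5.10, 5.26 and 5.45 in ZHBTc4 cells (mean 5.45, 43.9-fold over reference). All 6 arrays gave it far above every other member. Among cytosolic genes Rpl39 followed with a mean of 1.63 and Rpl7l1, a paralog of Rpl7, with 1.57, whereas Rpl7 itself was at 0.23. Rpl39l stood at 0.39. Both genes of these last 2 pairs were above the reference, whereas Rps4x, at -0.24, was below it. The lowest cytosolic members were Rpl5 (-1.06), which with Rpl11 inhibits Mdm2, Rpl23 (-0.60) and Rpl37rt (-0.46). Among mitochondrial members Mrpl45 (2.04), Mrps18b (1.54) and Mrpl15 (1.45) were highest and Mrpl13 (-0.83), Mrps15 (-0.53) and Mrpl30 (-0.51) lowest.

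**Figure D4:**
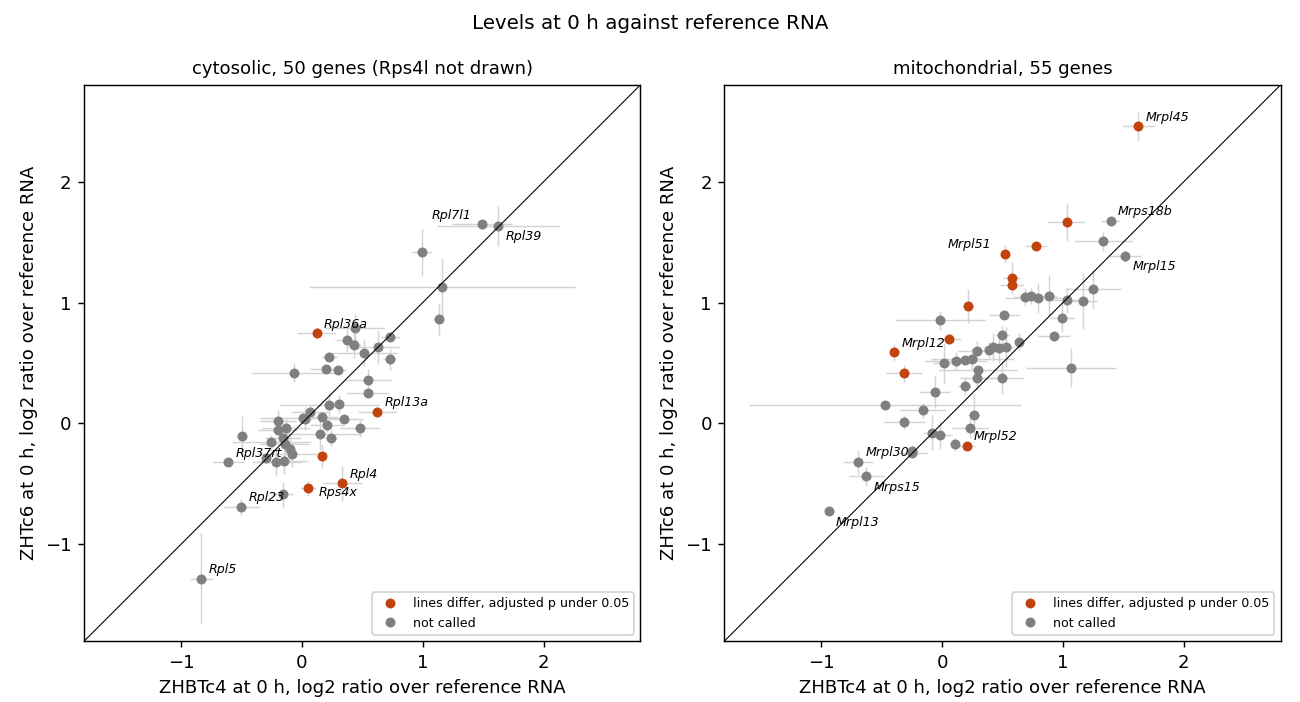
Log2 ratio over reference RNA at 0 h in ZHTc6 cells (vertical axis) against ZHBTc4 cells (horizontal axis), cytosolic members left and mitochondrial members right. Points are means of 3 arrays, bars are SDs, the line marks equal values and filled orange points are the 5 cytosolic and 11 mitochondrial genes for which the lines differed; Rps4l, at a mean of 5.45, is not drawn.

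The lines differed at 0 h in 16 members. Of 51 cytosolic genes 1 was higher and 4 lower in ZHTc6 cells, and of 55 mitochondrial genes 10 were higher and 1 lower, against 4.6% of 18443 features that were higher and 4.02% that were lower (limma with Benjamini-Hochberg adjustment over these features). Mrpl12, the mitochondrial stalk protein, had 0.66, 0.53 and 0.57 over reference in ZHTc6 and -0.38, -0.43 and -0.37 in ZHBTc4 cells, a difference of 0.98 (SE 0.08, adjusted p = 0.009). Mrpl51 had 1.35, 1.48 and 1.38 in ZHTc6 and 0.55, 0.53 and 0.50 in ZHBTc4 cells (difference 0.88), and Mrpl45 had 2.32, 2.53 and 2.52 in ZHTc6 and 1.76, 1.49 and 1.62 in ZHBTc4 cells (difference 0.83). Rpl36a, the cytosolic gene that was higher, had 0.80, 0.70 and 0.74 in ZHTc6 and -0.002, 0.06 and 0.31 in ZHBTc4 cells (difference 0.62). Rpl4 (-0.83), Rps4x (-0.59) and Rpl13a (-0.52) were lower in ZHTc6 cells, as was Mrpl52 (-0.39) among mitochondrial genes. The groups of arrays did not overlap for any of these 8 genes, which were picked by the test on the same arrays. Groups also did not overlap for some members that were not called, such as Mrpl10 and Rpl19.

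These calls at 0 h depended on single arrays. Without any 1 of the ZHTc6 arrays, or without ZHBTc4 array 1, 0 members of either class were called with limma, while 12 or 13 cytosolic and 18 to 23 mitochondrial members had an unadjusted p under 0.05. Without ZHBTc4 array 2 there were 0 cytosolic and 2 mitochondrial calls. Without ZHBTc4 array 3 there were 15 and 24. The differences kept their size when an array was left out, with 0.94 to 1.01 for Mrpl12 without a ZHTc6 array, while its adjusted p then lay between 0.0575 and 0.0782. For the 45 members on both sets, a lower 0 h level went with a higher late ratio in ZHBTc4 cells across genes (Pearson's r = -0.476 over 30 cytosolic and -0.472 over 15 mitochondrial genes). Both values rest on 0 h RNA of that line, and genes are not independent replicates, so that this is a description without a test.

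EB5 cells were transfected with siTcl1 to lower Tcl1, a coactivator of Akt, a kinase upstream of mTOR. Tcl1 itself was at -1.73 at 560 uM and -2.20 at 1120 uM (log2 difference of siTcl1 from siGFP). There is 1 array for each, and both doses share the siGFP array, so that no difference has a replicate check and the doses are not independent. Members were counted where both doses differed from siGFP by at least 0.5 in the same direction. Of 51 cytosolic genes 0 were higher and 1 lower, and of 55 mitochondrial genes 0 were higher and 1 lower, against 4.78% and 2.68% of all features. The cytosolic median was -0.11 at 560 uM and -0.01 at 1120 uM, and the mitochondrial median -0.08 and -0.14, against -0.01 and 0.004 for all features. The mean of both doses was below 0 for 33 of 51 cytosolic and 42 of 55 mitochondrial genes, against 9493 of 18443 features.

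The 2 members past the limit were Rpl38, known from mice as a large-subunit protein that affects the translation of Hox messengers, and Mrps5. Rpl38 had log2 ratios over reference of -0.68 with 560 uM and -0.56 with 1120 uM of siTcl1 and -0.04 with siGFP, differences of -0.64 and -0.52. Mrps5 had 0.45 and 0.36 with siTcl1 and 1.25 with siGFP, differences of -0.80 and -0.89, which made it the lowest member. Below 0 and past the limit at 1120 uM alone were, among the named genes, Rps25 (-0.41 and -0.57), a small-subunit protein needed for some internal ribosome entry sites, Rpl37a (-0.41 and -0.53) and Mrpl58 (-0.50 and -0.60), a hydrolase in the mitochondrial large subunit. Mrpl11 had -0.37 and -0.41. 

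The highest members under siTcl1 were Rplp1 (0.49 and 0.81), Rps20 (0.48 and 0.70) and Rps23 (0.49 and 0.68). On the siGFP array these 3 genes and Rps12 (0.48 and 0.49), which is named for this value, had a log2 ratio of 1.39, and 26 other oligos lay within 0.001 of each of them, against about 4.56 in a window of that width beside it. Rps23 also shared its value with 17 other oligos on the array of 560 uM. Their differences thus rest on a value that many oligos had in common, and what set that value was not tested. Mrpl49 (0.29 and 0.33) and Mrpl9 (0.15 and 0.21) were the highest mitochondrial genes, followed by Mrps18b (0.12 and 0.13). Across genes on both sets, the mean siTcl1 difference and the late response of ZHBTc4 cells had r = 0.429 over 30 cytosolic and 0.453 over 15 mitochondrial genes, without a test. The cytosolic genes include Rplp1, Rps23 and Rps12 with their shared siGFP value. Of these, Rplp1 and Rps23 were near 0 late in ZHBTc4 cells and Rps12 fell. Mrps5 was the lowest mitochondrial gene in both measures. Values of r without these genes are not given here.

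**Figure D5:**
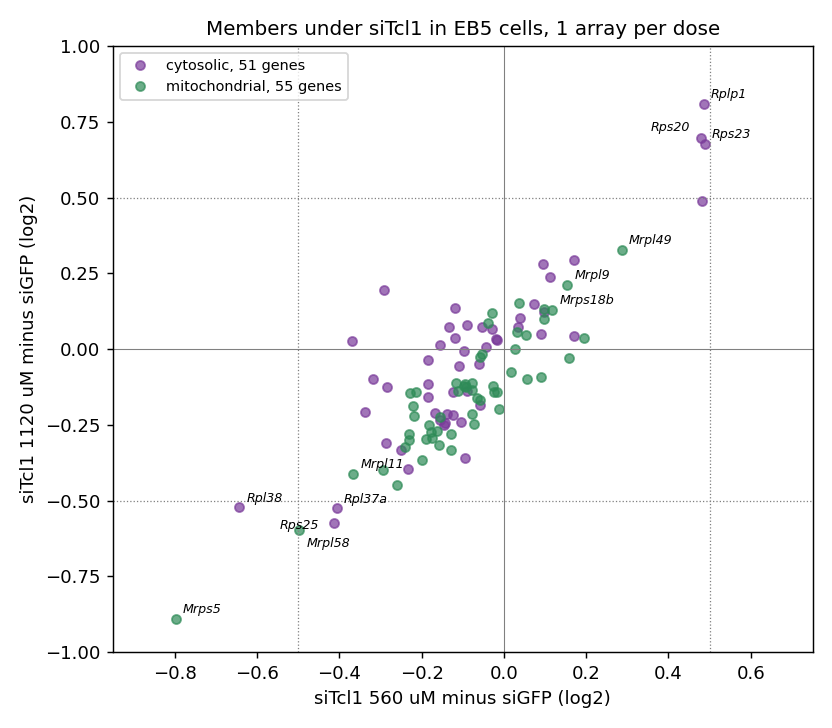
Log2 difference of siTcl1 at 1120 uM from siGFP (vertical axis) against that at 560 uM (horizontal axis) for each cytosolic (purple) and mitochondrial (green) member, 1 array per condition, with dotted lines at a size of 0.5. Mrps5 and Rpl38 lie beyond 0.5 below 0 on both axes, and Rplp1, Rps20 and Rps23 form a group near 0.49 on the horizontal axis.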

How the data were processed

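Total RNA was hybridised to 2-colour NIA Mouse 60-mer oligonucleotide arrays. The authors deposited log10 ratios of Cy5 over Cy3 made with Agilent Feature Extraction, whose version and settings are not given in the sources used here. The deposited log10 values are bounded at -2 and 2. They were turned to log2 of time point over 0 h (time course) or of sample over reference RNA, and dye-swapped arrays of a sample were averaged. Intensities were not used here. No further normalization was applied.

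Rows numbered below the lowest known oligo number (216 rows) and oligos at a bound on more than 0.5 of the arrays (211) were left out of the time course, which kept 22148 oligos, and 163 rows were left out of the reference arrays, which kept 21283. An oligo took a gene name where the annotation lists 1 gene or a table of the study names it, and none where the 2 sources differ. Oligos of a gene were averaged. The early (24 and 48 h) and late (72, 96 and 120 h) means of each sample, and their difference, were fitted for both lines together in limma 3.58.1 (R 4.3.3), with Benjamini-Hochberg adjustment over all 20619 features at 0.05. The lines at 0 h were compared over 18443 features. Samples are, per the study's methods, 3 independent ones per time point. At 120 h, 2 of the 3 ZHTc6 pairs carry number 2 for their own RNA; the one set against 0 h RNA number 1 was taken as sample 1, and the RNA may be the same in both.

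Sample numbers pair the time points of a line, since the labels give them the same 0 h RNA: deviations of time points with the same number had median correlations of 0.115 to 0.378, against -0.247 to 0.017 for different numbers. The value per sample takes the number as its unit. The lines share no such pairing.

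Named members are, in each response of a line, the 4 of each class with the largest rise and fall among those past the threshold with 1 sign in all 3 samples, in each line difference and at 0 h the 3 each way, against reference RNA the 3 highest and lowest, under siTcl1 the 3 with the largest mean difference each way, and pairs of paralogs. A named member is not reported here. Genes named for oligos that disagree, for shared values or for not passing a test were chosen after their values were seen. Members and lists were chosen with earlier results of these data known. The fits were tested on simulated data. Alternatives were other centring or scaling, each dye orientation alone, the first oligo, names from the annotation alone, no filter at the bounds, an unmoderated test, 1 fit over all time points with and without the sample as a block, other size limits for siTcl1, and each sample left out. Counting unnamed oligos that list 1 member among several genes, and splitting members by the source of their name, were chosen after seeing the data.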

Additional observations from a re-analysis of the deposited data

Results flagged for a closer look

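For the members below the responses of the lines to a change of Oct3/4 differed by the test of the difference itself (ZHTc6 minus ZHBTc4, log2, limma with Benjamini-Hochberg adjustment). Early, the difference was 1.41 for Rpl39, 1.13 for Rpl36 and 0.98 for Rplp1, and -1.20 for Rpl23, -0.96 for Rps24 and -0.63 for Rpl15. Among mitochondrial members it was 0.79 for Mrps5, 0.73 for Mrpl37 and 0.51 for Mrpl4, and -1.04 for Mrpl51, -0.86 for Mrpl47 and -0.58 for Mrpl44. Late, it was 2.67 for Rpl22 and 1.34 for Rpl15, and -0.47 for Rpl39l. The late mitochondrial differences were 1.69 for Mrps5, 0.90 for Mrpl47 and 0.72 for Mrpl39, and -0.41 for Mrpl43 and -0.39 for Mrpl51. The early difference of Rpl15 was no longer called with arrays centred and scaled (-0.26, adjusted p = 0.237) or with Cy3 as the dye of the time point (adjusted p = 0.074), nor was that of Mrps5 with Cy3 (0.60, adjusted p = 0.0735). Rpl15 and Mrpl47 changed sign between the early and the late difference, a change that was not itself tested. Groups of 3 samples were not tested for single samples that stand apart.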

How the results depend on the processing

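Names changed more counts of called members than any other choice tried. With names from the annotation alone (24 cytosolic and 10 mitochondrial genes), cytosolic calls were 12 early (22 in the reported fit), 9 late (16) and 13 from early to late (26) in ZHTc6 cells, 9 early (25), 16 late (33) and 11 from early to late (22) in ZHBTc4 cells, and 10 early (22) and 13 late (26) for the line difference. Mitochondrial calls then were 6 (10) from early to late in ZHTc6 cells, 5 (9) early in ZHBTc4 cells, and 5 (8) early and 5 (8) late for the line difference; fewer genes were tested by construction. With arrays centred and scaled, 13 cytosolic genes were called from early to late in ZHBTc4 cells and 3 at 0 h (5), and without the filter at the bounds 8 at 0 h. With the time point in Cy3 alone 14 cytosolic genes differed early between the lines.

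Leaving out 1 sample gave 20 to 22 cytosolic and 11 to 12 mitochondrial calls early, 8 to 19 and 4 to 8 late, and 20 to 29 and 9 to 11 from early to late in ZHTc6 cells. In ZHBTc4 cells it gave 16 to 25 and 5 to 9 early, 31 to 34 and 9 to 10 late, and 11 to 23 and 4 to 8 from early to late. Line differences gave 18 to 22 and 7 to 8 early, and 24 to 28 and 8 late. At 0 h the counts were 0 to 15 and 0 to 24. The cause was not tested.

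In 1 fit of all time points with the sample number as a replicate block (correlation 0.21), 10 mitochondrial genes were called from early to late in ZHBTc4 cells (6 in the reported fit), and without the block 25 cytosolic genes late in ZHTc6 cells (16). The block moved no other count of calls in the time courses by over 1.5 times. At 0 h numbers do not pair the lines (correlations 0.145, -0.110 and 0.112), and with the number as a block 0 cytosolic and 0 mitochondrial genes were called, with 14 and 21 at an unadjusted p under 0.05 (limma).

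Under siTcl1, a limit of 0.32 gave 4 higher and 3 lower cytosolic and 3 lower mitochondrial genes. The 4 higher were Rplp1, Rps12, Rps20 and Rps23, whose value on the siGFP array was shared with 26 other oligos. A limit of 1 gave 0 lower in both classes, and centred arrays gave 2 lower mitochondrial genes. Shares of all features at these other settings are not given here. Of the other values, 2012 kept their direction and side of the threshold or moved by less than the spread, 45 moved by more, 98 no longer passed the test, 3 newly passed and 0 reversed. No intensities were used, so that signal over background is unknown here.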
